A study of Mus musculus with 6 samples.

Results

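ABC transporters are membrane proteins that spend ATP, bound at a pair of conserved nucleotide-binding cassettes, to move lipids, drugs, peptides, porphyrins and conjugated metabolites across membranes. The mouse family is divided into subfamilies named with the letters A to G. The A and G proteins are mostly known for lipids and sterols, B and C for drugs, conjugates and mitochondrial cargo, D for peroxisomes and lysosomes, and the E and F proteins lack membrane domains and act on ribosomes. In mammary epithelium Abcg2 carries compounds into milk, and dye efflux through Abcg2 and the P-glycoproteins is widely used to enrich for stem and progenitor cells.

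The members described here are all genes to which the array gives at least 1 unshared probe set, a group of oligonucleotides meant to measure 1 gene, whose array symbol starts with Abca, Abcb, Abcc, Abcd, Abce, Abcf or Abcg. There were 45 such genes of 18193 measured, with 92 probe sets of 45037 tested. For a gene with several, the one with the highest mean log2 value over the 6 arrays was used. Subfamily A had 14 genes, B had 8, C had 10, D had 3, E had 1, F had 3 and G had 6. The symbols and Entrez identifiers of all 45 matched the reference gene table.

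The cells were Wnt1-YL, a line grown from an invasive mammary carcinoma of an MMTV-Wnt1 mouse of the FVB/n strain, in which the mammary tumor virus promoter drives Wnt1. Both groups carried an shRNA and were cultured in the same serum-poor medium with insulin and EGF. The 3 shSca-1 arrays came from cells with an shRNA against Sca-1, a surface protein used as a stem and progenitor cell marker, and the 3 shLuc arrays from cells with a control shRNA against luciferase. The comparison asks which transcripts changed when Sca-1 was repressed in this line; age does not apply to a cell line, and both groups model a single tumor.

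Ly6a, which encodes Sca-1, was lower on all 3 shSca-1 arrays (285 to 314) than on the shLuc arrays (2843 to 7646), in units of intensity, the array's model value on a linear scale. The array medians lay between 37.3 and 40.6. The array labelled shLuc replicate 3 stood apart from the other 5. Over 13958 probe sets at 100 or more on every array, its log2 values differed from those of the other shLuc arrays with an SD of 0.62 to 0.63, against 0.13 between shLuc replicates 1 and 2, and 0.16 to 0.28 among the shSca-1 arrays. On it, 10 of 11 luminal marker genes were at 100 or more, against 1 on each other array. Their summed intensity was 21730 on shLuc replicate 3 and 368 to 437 on the other 5 arrays, while that of 9 basal markers was 21456 and 34897 to 41659. Macrophage, endothelial, fibroblast and adipocyte markers summed to at most 861 for any list on any array. The fold changes of the genes below are therefore given with this array and, in most cases, also without it. In such bulk RNA, fewer cells of a type and less RNA per cell cannot be told apart. The labels call the replicates biological without saying whether they came from separate cultures, so that p-values measure the spread between these arrays.

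Most of the family was expressed weakly in these cells. An intensity of 100 or more on all 6 arrays was reached by 15 members, 15 lay below the array's median on all 6, and 15 lay between. Subfamilies E and F were wholly in the bright group (1 of 1 and 3 of 3), and 2 of 3 members of D, 3 of 8 of B, 3 of 10 of C and 3 of 14 of A were in it. No member of subfamily G was. The log2 fold changes of shSca-1 against shLuc were positive for 24 members and negative for 21, with a median of 0.05, beside a median of -0.04 over all 18193 genes. Without shLuc replicate 3 the medians were 0.05 and -0.04, and the median size of the change, whichever its sign, was 0.17 for the members and 0.24 for all genes.

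**Figure D1:**
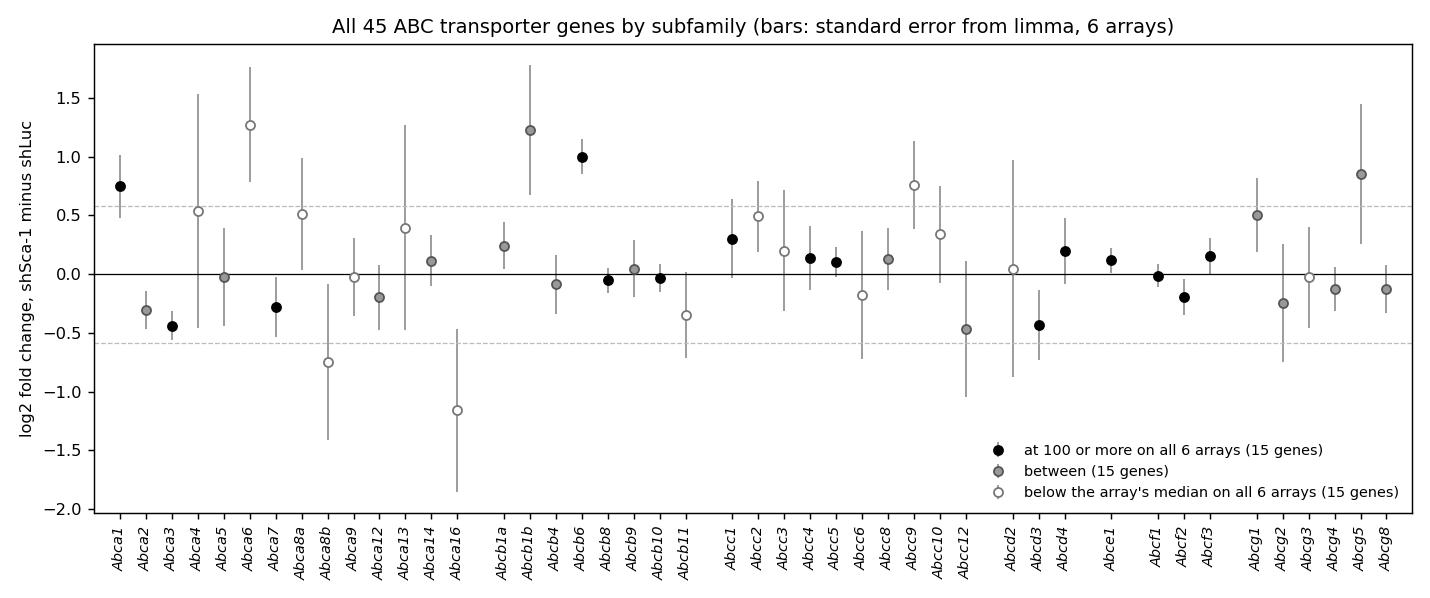
Log2 fold change, shSca-1 minus shLuc, for each of the 45 ABC transporter genes on 6 arrays, grouped by subfamily, with the standard error from limma as bars and dashed lines at a fold change of 1.5. Black points are the 15 genes at 100 or more on every array, and Abcb6 (1.00) is the only one of all 45 that passed both the p and the fold threshold.

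The genes were compared with limma over all probe sets. Of the 45 members, 1 (Abcb6) rose past an unadjusted p of 0.01 and a fold change of 1.5, the thresholds used in the paper, and 0 fell. Among all probe sets, 0.5% passed these thresholds in the higher direction and 1.33% in the lower direction. These shares include dim probe sets and several per gene, while the members count 1 probe set per gene. At an adjusted p under 0.05 (Benjamini-Hochberg over all probe sets), limma called 0 members and 0% of all probe sets on 6 arrays. Even Ly6a, the repressed gene, was not called there (log2 fold change -4.17, limma adjusted p = 0.051), so this count of 0 says little about the family. At an unadjusted p under 0.05 limma gave 3 members higher in shSca-1 cells (Abcb6, Abca1 and Abca6) and 1 lower (Abca3). The share of all probe sets at this unadjusted p was not counted, and Abca6 was dim, at 3.22 to 16.2. Without shLuc replicate 3, 2 members (Abcb6 and Abcb1b) passed the adjusted threshold, both higher in shSca-1 cells, beside 0.842% of all probe sets higher and 1.92% lower.

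All 3 shSca-1 arrays lay above all 3 shLuc arrays for 6 members (Abca1, Abca6, Abcb1a, Abcb1b, Abcb6 and Abcc9) and below them for 2 (Abca2 and Abca3). Among all genes these shares were 7.18% and 11.5%. Without shLuc replicate 3 the counts were 10 above and 3 below, beside 15.4% and 21.7% of all genes. Abca6 and Abcc9 were below the array's median on every array, and they and Abca2 were chosen after their values were seen. With 3 arrays a group, the smallest two-sided p of an exact permutation test is 0.1.

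To show the stretches before the genes with the clearest values, the 250 bases upstream of the annotated start of Abcb6, Abcb1b and Abca3 are given 5′ to 3′ on the gene's strand, from RefSeq (GRCm38.p6). Abcb6 and Abcb1b were the members higher at the adjusted threshold without shLuc replicate 3, and Abca3 was the bright member that lay lower on every shSca-1 array. Capitals mark matches on either strand to 3 motifs. The GC box was searched as GGGCGG. The motif named after its own letters, the CCAAT box, was searched as such, and the TATA box was searched as TATAAA. The regions are chr1:75180393-75180642 (minus strand) for Abcb6, chr5:8797897-8798146 (plus strand) for Abcb1b and chr17:24351773-24352022 (plus strand) for Abca3.
Abcb6: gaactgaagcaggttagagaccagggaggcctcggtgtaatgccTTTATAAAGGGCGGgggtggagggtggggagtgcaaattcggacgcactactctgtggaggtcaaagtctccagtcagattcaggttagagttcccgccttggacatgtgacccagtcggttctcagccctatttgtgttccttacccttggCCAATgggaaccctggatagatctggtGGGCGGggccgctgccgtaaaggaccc
Abcb1b: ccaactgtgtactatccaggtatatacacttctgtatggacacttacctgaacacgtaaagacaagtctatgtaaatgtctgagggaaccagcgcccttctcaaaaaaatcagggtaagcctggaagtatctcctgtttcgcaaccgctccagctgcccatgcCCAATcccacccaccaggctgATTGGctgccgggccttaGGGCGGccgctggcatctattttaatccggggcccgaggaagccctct
Abca3: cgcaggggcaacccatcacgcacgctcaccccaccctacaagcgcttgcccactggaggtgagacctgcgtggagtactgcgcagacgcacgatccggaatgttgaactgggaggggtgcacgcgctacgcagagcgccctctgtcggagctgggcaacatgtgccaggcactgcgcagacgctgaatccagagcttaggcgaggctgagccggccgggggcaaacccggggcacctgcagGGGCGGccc

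Abcb6 held GC boxes at 198 to 193 and at 27 to 22 bases before the start and a CCAAT box at 54 to 50. Its TATA box at 204 to 199 overlaps a match on the opposite strand at 206 to 201 and abuts the farther GC box. Abcb1b held a GC box at 48 to 43 and CCAAT boxes on both strands, at 87 to 83 and at 66 to 62, and Abca3 held a GC box at 9 to 4. Such short motifs are common. Of 32851 promoter windows of this length, 32.7% held the GC box, 33.8% the CCAAT box and 12.4% the TATA box. RefSeq gave 42 windows for 35 of the 45 members, and of these 20 held the GC box, 12 the CCAAT box and 5 the TATA box. The E-box CACGTG was in 4 of the 42 windows (6.0% of all windows), the cAMP response element TGACGTCA in 2 (1.5%) and the AP-1 site TGANTCA in 0 (6.7%). These are letter matches and were not tested as binding sites.

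The mitochondrial members of subfamily B were present at moderate intensity, and 1 of the 3 differed between the groups. Abcb6 encodes a porphyrin transporter of the outer mitochondrial membrane and of other membranes. Its intensity was 241, 254 and 229 on shSca-1 replicates 1, 2 and 3, against 111, 113 and 139 on shLuc replicates 1, 2 and 3. Every shSca-1 array was far above every shLuc array, and here shLuc replicate 3 was the shLuc array nearest to the shSca-1 arrays. The means were 241 ± 13.0 in shSca-1 cells and 121 ± 15.4 in shLuc cells (SD, n = 3 each). The log2 fold change was 1.00 (standard error, SE, 0.15, limma adjusted p = 0.112), and without shLuc replicate 3 it was 1.10 (limma adjusted p = 0.00745). Abcb6 is on the list of changed genes that the authors chose on these samples, so its call is not independent evidence.

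Abcb8 and Abcb10 encode transporters of the inner mitochondrial membrane, the second of which is needed for heme production in red cell precursors of the mouse. Abcb10 was 346, 365 and 301 on the shSca-1 arrays, against 358, 349 and 326 on the shLuc arrays, and Abcb8 was 443, 389.9 and 432 against 453, 430.3 and 428. Both sets of values overlapped, with log2 fold changes of -0.03 (SE 0.12) and -0.05 (SE 0.11), whose signs turned with the scaling of the arrays (0.05 and 0.01 after quantile normalization). Without shLuc replicate 3 both were -0.07.

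**Figure D2:**
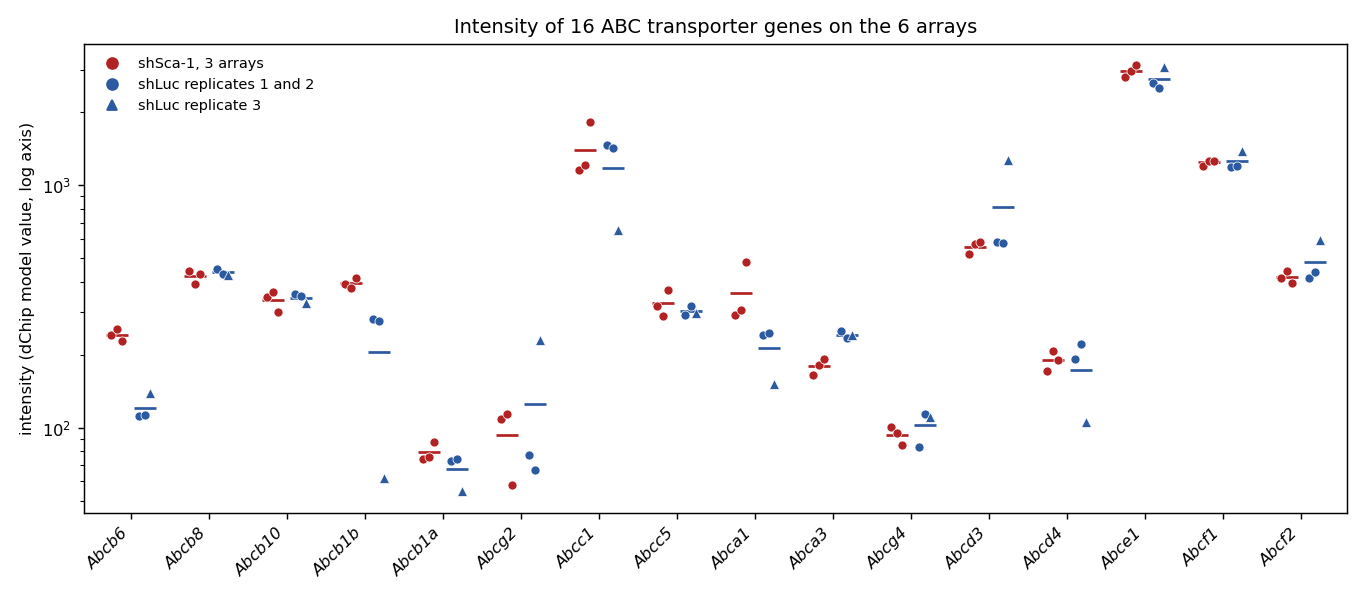
Intensity (log axis) of 16 ABC transporter genes on each array, shSca-1 in red and shLuc in blue, with triangles for shLuc replicate 3 and lines at the means of 3 arrays. For Abcb6 all red points (229 to 254) lie above all blue points (111 to 139), while for Abcb1b, Abcd3 and Abcg2 the triangle lies far from the other points.

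Of the multidrug efflux genes, Abcb1b was the clearest. Mice have a pair of P-glycoprotein genes, Abcb1a and Abcb1b, which share the drug efflux role of a single human gene and lie next to each other on chromosome 5, beside Abcb4. Abcb1b was 392, 376 and 415 on shSca-1 replicates 1, 2 and 3, against 280.3, 274 and 62.1 on shLuc replicates 1, 2 and 3. All shSca-1 arrays were above all shLuc arrays, and shLuc replicate 3 lay below every other array by a fold of more than 4. The log2 fold change was 1.23 (SE 0.55, limma adjusted p = 0.571), of which 0.51 (SE 0.10, limma adjusted p = 0.0379) was left without shLuc replicate 3, a fold change of 1.42 that is under 1.5. Another probe set of Abcb1b, dim on all arrays but shSca-1 replicate 3, had overlapping groups and a log2 fold change of 0.67 on 6 arrays. Luminal markers were high on shLuc replicate 3, as given above, and their part in its low Abcb1b was not tested.

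Abcb1a, the neighbouring paralog, was dim, at 74.4, 75.7 and 87.2 on the shSca-1 arrays against 72.9, 74.4 and 54.6 on the shLuc arrays. The groups were separated by less than 1 unit of intensity, and the log2 fold change of 0.24 (SE 0.20) became 0.10 without shLuc replicate 3. Whether the probe sets of these close paralogs share signal was not tested.

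Abcg2, the breast cancer resistance protein gene, was 108, 114 and 57.7 on the shSca-1 arrays, against 77.2, 66.8 and 229.8 on the shLuc arrays. The highest value was on shLuc replicate 3 and the lowest on shSca-1 replicate 3, and the groups overlapped. The log2 fold change was -0.25 (SE 0.51) on 6 arrays and 0.31 (SE 0.30) without shLuc replicate 3, and the sign also turned without shSca-1 replicate 3 (0.07).

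Abcc1 encodes a transporter of glutathione conjugates and leukotriene C4. It was 1159, 1213 and 1822 on shSca-1 replicates 1, 2 and 3, against 1464, 1424 and 653 on shLuc replicates 1, 2 and 3. The replicates within each group spread more widely than the groups differed, since replicate 3 was the highest array of shSca-1 and the lowest of shLuc. The log2 fold change of 0.30 (SE 0.34) turned to -0.08 (SE 0.18) without shLuc replicate 3. A second probe set of Abcc1 gave 0.33 and 0.06.

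Abcc5, an exporter of cyclic nucleotides, was 319, 290.1 and 369 on the shSca-1 arrays against 292, 317 and 296 on the shLuc arrays, a log2 fold change of 0.11 (SE 0.13), and of 0.09 without shLuc replicate 3, with overlapping groups. Its probe sets did not all behave alike. The next 2 by intensity gave log2 fold changes of 0.12 and 0.06. The 2 after them gave 0.65 and 0.51, and 0.37 and 0.42 without shLuc replicate 3. The remaining, dimmer ones ranged from -1.53 to 0.67 on 6 arrays. Abcc4, which exports cyclic nucleotides and prostaglandins and was chosen after its values were seen, was 184, 187 and 243 against 235, 218 and 122. As for Abcc1, the lowest value was on shLuc replicate 3 and the highest on shSca-1 replicate 3. The 7 other members of subfamily C included 5 below the array's median on every array.

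Among the lipid transporters, Abca1 and Abca3 lay on opposite sides. Abca1, which loads cellular cholesterol onto apolipoprotein A-I, was 292, 305 and 481 on shSca-1 replicates 1, 2 and 3, against 241, 247 and 151 on shLuc replicates 1, 2 and 3. The groups did not overlap, and replicate 3 of each group lay farthest from the other group. The means were 359 ± 106 in shSca-1 cells and 213 ± 53.6 in shLuc cells (SD, n = 3 each), with a log2 fold change of 0.75 (SE 0.27, limma adjusted p = 0.472) and of 0.52 (limma adjusted p = 0.27) without shLuc replicate 3. A dimmer probe set of Abca1 had overlapping groups and a log2 fold change of 0.20, and of -0.06 without shLuc replicate 3.

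Abca3 moves phospholipids into the lamellar bodies of surfactant-producing lung cells. It was 164, 181 and 192 on the shSca-1 arrays, against 249.7, 235 and 242 on the shLuc arrays. Every shSca-1 array was lower than every shLuc array, and shLuc replicate 3 lay between the other shLuc arrays. The means were 179 ± 13.9 in shSca-1 cells and 242 ± 7.16 in shLuc cells (SD, n = 3 each). The log2 fold change was -0.44 (SE 0.12, limma adjusted p = 0.353), with the same value and a limma adjusted p of 0.112 without shLuc replicate 3. Its fold change of 1.36 is under 1.5. A second probe set gave 97.2, 101 and 87.7 on the shSca-1 arrays against 152, 135 and 132 on the shLuc arrays, again without overlap. Its log2 fold change was -0.55, and -0.59 without shLuc replicate 3. Without that array it passed the p and fold thresholds (fold change 1.51, limma unadjusted p = 0.00458, adjusted p = 0.093). Another, dim probe set had a log2 fold change of 0.22.

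The next members of subfamily A were chosen after their values were seen. Abca2, a lysosomal lipid transporter best known from brain, was 60.6, 60.0 and 57.9 on the shSca-1 arrays against 74.9, 71.5 and 74.4 on the shLuc arrays. The groups did not overlap, at a log2 fold change of -0.31 (SE 0.16), and of -0.30 without shLuc replicate 3. Abca5 was 72.0, 63.1 and 60.3 against 52.3, 42.0 and 132, so that only shLuc replicate 3 kept the groups from separating. Abca7, known from phagocytosis and phospholipid transport, was 111, 147 and 197 against 192, 211 and 142, with overlapping groups.

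The sterol transporters of subfamily G were dim. Abcg4, known from neurons, was 100.2, 94.6 and 84.5 on the shSca-1 arrays against 83.4, 114 and 110.2 on the shLuc arrays, with a log2 fold change of -0.13 (SE 0.19), and of -0.07 without shLuc replicate 3. Abcg1, which passes cholesterol to high-density lipoproteins and was chosen after its values were seen, was 39.3, 55.0 and 54.3 against 25.3, 50.2 and 32.2. Both overlapped between the groups. Abcg5 and Abcg8, the paired sterol exporters of liver and gut, did not exceed 73.4 on any array.

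Subfamily D serves peroxisomes and lysosomes, and 2 of its 3 members were bright. For both of them the widest gap lay between shLuc replicate 3 and the other 5 arrays. Abcd3, which imports acyl-CoA esters into peroxisomes, was 519, 573 and 587 on the shSca-1 arrays, against 583, 576 and 1276 on the shLuc arrays. Its log2 fold change was -0.43 (SE 0.30) on 6 arrays and -0.05 (SE 0.09) without shLuc replicate 3. Abcd4, a lysosomal protein of cobalamin transport, was 171, 207 and 191 against 193, 222 and 106, with log2 fold changes of 0.20 (SE 0.28) and -0.13 (SE 0.13). On shLuc replicate 3 Abcd3 was the highest of all arrays and Abcd4 the lowest. Abcd2, a peroxisomal transporter of very long-chain fatty acids, was chosen after its values were seen and was dim, at 6.97, 3.81 and 20.3 on the shSca-1 arrays against 22.5, 2.68 and 8.12 on the shLuc arrays.

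The members that work at the ribosome showed small differences, none of which passed the thresholds. Abce1, an iron-sulfur ATPase that splits ribosomes after termination, was 2814, 2967 and 3132 on the shSca-1 arrays, against 2646, 2518 and 3071 on the shLuc arrays. Without shLuc replicate 3 the groups did not overlap, at a log2 fold change of 0.20 (SE 0.07, limma adjusted p = 0.208), and on 6 arrays it was 0.12. A second probe set gave 0.34 (limma adjusted p = 0.0757) without that array and 0.20 with it.

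Abcf1, which takes part in translation initiation, was 1202, 1264 and 1265 on the shSca-1 arrays against 1190.2, 1200.4 and 1386 on the shLuc arrays, a log2 fold change of -0.01 (SE 0.10) whose sign turned after quantile normalization (0.04) and without shLuc replicate 3 (0.06). The other bright probe sets of Abcf1 gave 0.17, 0.15 and -0.11. Abcf2 was 414, 443 and 394 against 416, 439 and 592. Its log2 fold change was -0.19 (SE 0.16), and -0.04 without shLuc replicate 3, the array with the highest value. Abcf3, chosen after its values were seen, was 199, 239 and 279 against 218, 200.5 and 221, with overlapping groups.

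**Figure D3:**
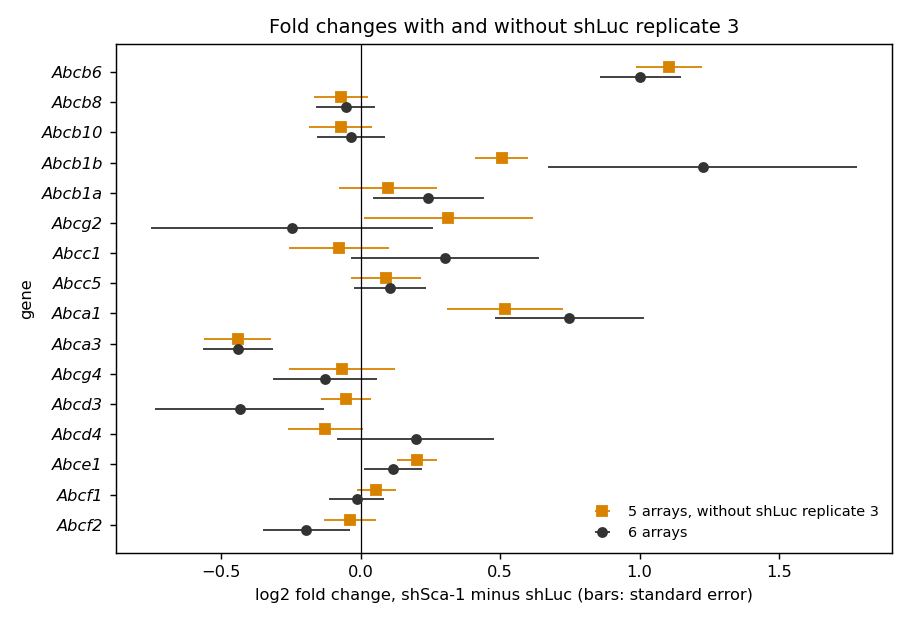
Log2 fold change (shSca-1 minus shLuc, with the standard error from limma) of 16 ABC transporter genes on 6 arrays (black circles) and without shLuc replicate 3 (orange squares). Abcb6 (1.00 and 1.10) and Abca3 (-0.44 both times) keep their place, while Abcb1b (1.23 and 0.51) and Abcd3 (-0.43 and -0.05) move toward 0 and Abcg2, Abcc1 and Abcd4 change sign.

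Of the 15 members at 100 or more on every array, shLuc replicate 3 was the lowest array for 4 and the highest for 3, beside 31% and 34.2% of the 8076 genes at that level. The part of its luminal marker signal in these extremes was not tested. Without it, 11 of the 15 bright members lay within 0.25 of 0 on the log2 scale, and 6 had a positive and 9 a negative difference, against 8 and 7 on 6 arrays.

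**Figure D4:**
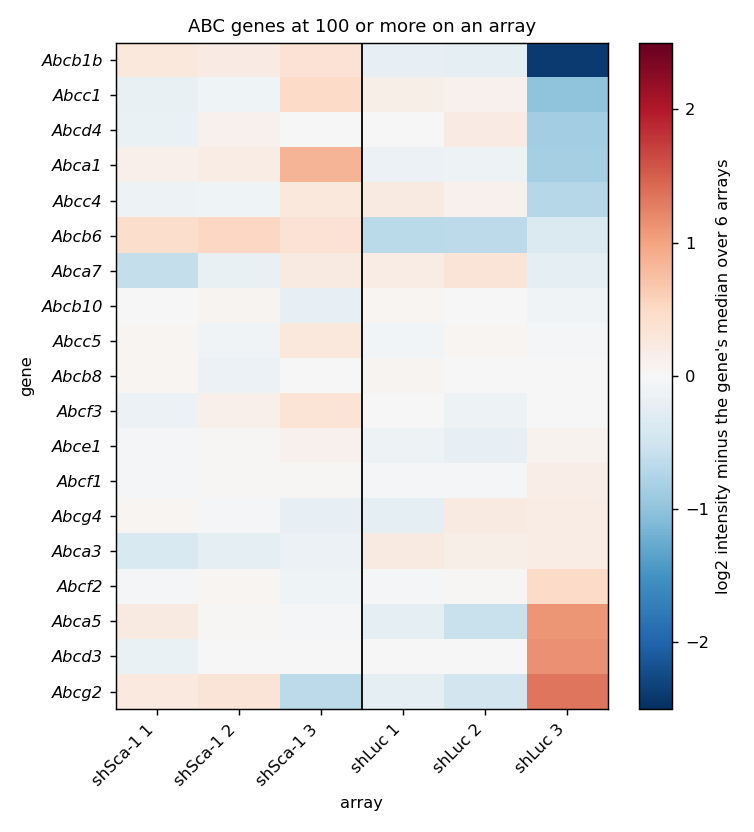
Log2 intensity minus the gene's median over 6 arrays, for the 19 ABC transporter genes at 100 or more on at least 1 array, with shSca-1 arrays left of shLuc arrays and genes ordered by their deviation on shLuc replicate 3. The deviation on that array runs from -2.39 for Abcb1b to 1.33 for Abcg2.

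The 15 members below the array's median on all 6 arrays had intensities between 1 and 34.8. Their log2 fold changes ranged from -1.16 (Abca16) to 1.27 (Abca6), and the smallest limma adjusted p among them was 0.507 on 6 arrays and 0.385 without shLuc replicate 3. Of the Abca5, Abca6, Abca8a, Abca8b and Abca9 genes, neighbours on chromosome 11, only Abca5 reached 100, and it did so on shLuc replicate 3 alone. None of the dim members passed the adjusted threshold, and at these intensities small differences are not detectable.

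Genes that supply or regulate these transporters were read from lists of the field. Among all probe sets, 0.5% rose and 1.33% fell past the p and fold thresholds on 6 arrays. The lists count 1 probe set per gene, so these shares and those below are not fully alike with the list counts. Of 20 measured genes of heme synthesis and iron-sulfur clusters, 0 rose and 2 fell past them. These were Uros, an enzyme of the heme pathway, at 151, 189 and 205 on the shSca-1 arrays against 324, 281 and 265 on the shLuc arrays (log2 fold change -0.68, and -0.75 without shLuc replicate 3), and Isca2, of mitochondrial iron-sulfur assembly, at 250.1, 306 and 346 against 472, 475 and 457 (log2 fold change -0.65, and -0.67 without it). Neither overlapped between the groups. Hmox1, next in the list by unadjusted p, was 220, 264 and 219 on the shSca-1 arrays against 332, 303 and 290 on the shLuc arrays. It too was without overlap, at a log2 fold change of -0.40, and of -0.44 without shLuc replicate 3. Its fold change of 1.32 on 6 arrays is under 1.5.

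Tfrc, the transferrin receptor that brings in iron, was 3373, 3384 and 2595 on the shSca-1 arrays, against 646, 607 and 3144 on the shLuc arrays. The high value of shLuc replicate 3 placed it among the shSca-1 arrays. The log2 fold change was 1.53 (limma adjusted p = 0.51) and 2.30 (limma adjusted p = 0.000797) without shLuc replicate 3, where Tfrc was the only gene of the list past the adjusted threshold. The share of all probe sets higher at that threshold was 0.842%.

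The list of glutathione conjugation genes, a pathway that supplies cargo for subfamily C, included falls. Of 21 measured genes 0 rose and 3 fell past the p and fold thresholds, and without shLuc replicate 3, 0 rose and 5 fell at the adjusted threshold. Among all probe sets, 0.5% were higher and 1.33% lower by the p and fold thresholds on 6 arrays. By the adjusted threshold without shLuc replicate 3, 0.842% were higher and 1.92% lower. Mgst1, a membrane-bound glutathione transferase, was 758.5, 854 and 1195 on the shSca-1 arrays, against 3089, 3098 and 6291 on the shLuc arrays. The groups were far apart, at a log2 fold change of -2.09 (limma adjusted p = 0.113), and of -1.75 (limma adjusted p = 0.00518) without shLuc replicate 3. The cytosolic transferases Gstm1 (log2 fold change -1.14, and -1.31 without that array) and Gstm2 (-1.09, and -0.72) made up the 3, and Gstm5 and Mgst3 joined them in the 5. The median of the list was -0.21, and -0.08 without shLuc replicate 3.

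Of 10 peptide loading genes, which serve the ABC transporter Tap1 and Tap2, 0 passed the p and fold thresholds in either direction on 6 arrays. Without shLuc replicate 3, 2 rose at the adjusted threshold, beside 0.842% of all probe sets. These were Tapbp (tapasin, which tethers class I molecules to the transporter, log2 fold change 0.41) and Psmb10 (an immunoproteasome subunit, 0.54). Erap1, with the smallest unadjusted p of the list, was higher on every shSca-1 array. Its log2 fold change was 0.59, and 0.40 without shLuc replicate 3. Of the 10 genes 9 had a positive log2 fold change on 6 arrays. The median of the list was 0.22, and 0.31 without shLuc replicate 3, beside -0.04 over all genes both times. The transporter genes themselves had overlapping groups. Tap2 was 221, 201 and 223 on the shSca-1 arrays against 213, 199 and 102 on the shLuc arrays, and Tap1 was 96.1, 119 and 112 against 99.0, 121 and 49.6.

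In 5 further lists 0 genes passed in either direction, by the p and fold thresholds on 6 arrays or by the adjusted threshold without shLuc replicate 3. These were 18 genes of cholesterol efflux and LXR targets, 14 nuclear receptors and other regulators, 21 of peroxisomes, 14 of translation termination and ribosome recycling, and 2 pore subunits of ATP-sensitive potassium channels. The same held for Tap1, Tap2 and Cftr, the ABC genes with other symbols. Of the 21 peroxisome genes 5 had a positive log2 fold change on 6 arrays. The median of that list was -0.20, and -0.14 without shLuc replicate 3. Amacr, with its smallest unadjusted p, was 106, 136 and 119 on the shSca-1 arrays against 187, 164 and 187 on the shLuc arrays, without overlap. The fold change of Amacr on 6 arrays, 1.49, is under 1.5. Of the cholesterol list Lpcat3, a phospholipid-remodelling LXR target, was 1153, 1347 and 1528 on the shSca-1 arrays against 1074, 962 and 1141 on the shLuc arrays (log2 fold change 0.34, limma adjusted p = 0.511, and 0.39 without shLuc replicate 3). Nceh1, of the same list, had a smaller unadjusted p and was lower, at 180, 199.6 and 220.3 against 315, 288 and 219.8. Its log2 fold change was -0.45 on 6 arrays, where the groups overlapped, and -0.60 without shLuc replicate 3. Of the 18 genes 8 had a positive log2 fold change on 6 arrays. The median of the list was -0.04, and 0.08 without shLuc replicate 3.

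**Figure D5:**
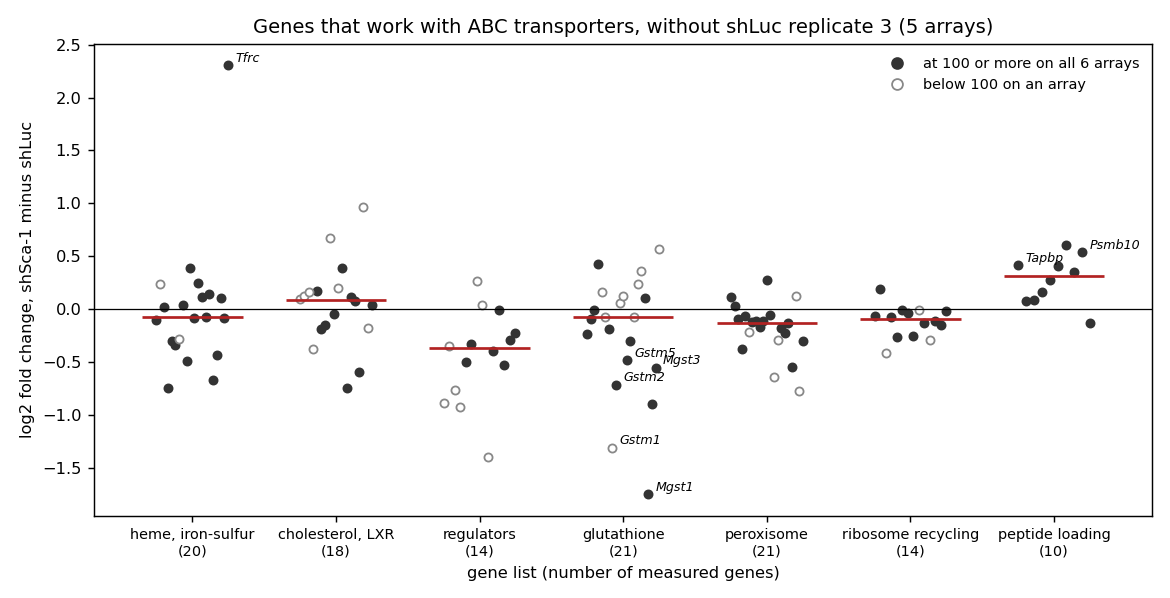
Log2 fold change (shSca-1 minus shLuc) without shLuc replicate 3 of the measured genes of 7 lists that work with ABC transporters, with red lines at each list's median, filled points for genes at 100 or more on all 6 arrays, and names for genes with an adjusted p under 0.05. Tfrc (2.30) and Mgst1 (-1.75) lie farthest from 0.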

How the data were processed

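RNA of 3 shSca-1 and 3 shLuc samples was measured on Affymetrix mouse arrays. The authors deposited 1 table of linear intensity values for 45101 probe sets, computed with dChip (PM-MM model, invariant set normalization). The model subtracts mismatch probes, so dim values are unstable, and precision is limited by the number of arrays. The methods name the MG 430 2.0 chip and the results the 430A 2.0 array. The array's annotation gave 34945 probe sets 1 symbol, 932 several and 9160 none. The files name no genome build, so probe sets have no position here.

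After removal of 64 control probe sets, values were floored at 1 and put on the log2 scale. limma 3.58.1 (R 4.3.3; eBayes with a trend, no replicate block) tested shSca-1 against shLuc, with Benjamini-Hochberg adjustment over 45037 probe sets. The scripts were tested on simulated data. A list or family is described by counts and medians. The Ly6a probe set, which has no symbol in the annotation, was identified through the authors' gene list.

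Members and lists were chosen with earlier results of these data known. Named were members past the p and fold thresholds or the adjusted threshold with or without shLuc replicate 3, Abcb6, the 2 brightest of each subfamily, members with 1 array at least 4 times above or below the others, Abcb1a, Abcb1b, Abcc1 and Abcg2, members whose bright probe sets disagree in sign by over 0.5, and up to 4 genes of each list by p. Alternatives were quantile normalization, centring, floors at 16 and 64, a filter at the 40 percentile, no variance trend, robust variance, a replicate block, the mean over a gene's probe sets, arithmetic means for the fold, the methods' t-test, and each array left out. Their repeats without shLuc replicate 3 were added once the data had been seen.

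The labels do not say whether same-numbered arrays were handled together, and the samples were treated as unpaired. The deviations of same-numbered arrays had correlations of -0.04, -0.02 and -0.03 across probe sets. Over all probe sets, dim ones included, such values cannot show that the arrays were unpaired.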

Additional observations from a re-analysis of the deposited data

How the results depend on the processing

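Abcb6 passed the p and fold thresholds under all 17 alternatives (log2 fold change 0.94 to 1.10), and 0 members fell past them. The second probe set of Abca3, which these counts do not use on its own, fell past them without shLuc replicate 3. The count of members at an adjusted p under 0.05 ranged from 0 to 2 when each array was left out in turn, being 2 without shLuc replicate 3. Of 298 combinations of a gene and an alternative, 18 had the opposite sign and 14, all without shLuc replicate 3, lost the adjusted threshold. After quantile normalization Abcb10, Abcb8 and Abcf1 had log2 fold changes of 0.05, 0.01 and 0.04, and with centred arrays 0.03, 0.01 and 0.05, while the median of all probe sets moved from -0.03 to 0.02 and 0.03. With the mean of all probe sets Abcd4 had -0.01, Abce1 -0.04, Abcf1 0.13 and Abcg4 0.35. With each array left out, Abcb10 ranged from -0.09 to 0.05, Abcb8 from -0.09 to 0.00, Abcc1 from -0.08 to 0.50, Abcd4 from -0.13 to 0.41, Abcf1 from -0.05 to 0.06 and Abcg2 from -0.58 to 0.31. The replicate block, with numbers that the labels do not call pairs, left the counts at 1 higher, 0 lower and 0 at the adjusted threshold. The filter removed 15 members.

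The count of 2 without shLuc replicate 3 (Abcb6 and Abcb1b) became 1 with a floor at 16 and 0 with a floor at 64, with no variance trend and with the methods' t-test. With a further array left out it ranged from 0 to 5, being 0 without shSca-1 replicate 2, shLuc replicate 1 or shLuc replicate 2, 1 without shSca-1 replicate 1, and 5 without shSca-1 replicate 3 (Abca3, Abca7, Abcb1b, Abcb6 and Abcc1). A lone shLuc array is then assumed to vary like the shSca-1 arrays. The shares of all probe sets called in these settings are not given here, so the counts cannot be read as a result about the family. The adjusted p of Abcb6 ranged from 0.000388 to 0.283 and that of Abcb1b from 0.0151 to 0.393, at log2 fold changes of 1.07 to 1.19 and 0.47 to 0.59. The cause was not tested.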
